A study of Mus musculus with 6 samples.

Results

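The SREBP system senses sterols in the endoplasmic reticulum, and 8 of its genes were examined in tumours with a knockdown of Sqle: Srebf1, Srebf2, Scap, Insig1, Insig2, Mbtps1, Mbtps2 and Stard4. The 8 genes were taken by symbol from a table of 55349 genes, each matched 1 row, and all 8 were among the 13268 genes that passed a filter on low counts. RNA was sequenced from 6 subcutaneous tumours of B16F10, a pigmented mouse melanoma line, with 3 libraries per group. The control group is labelled shControl with the genotype WT (replicates 1, 4 and 5), and the other is labelled shSQLE with the genotype SQLE knockdown (replicates 1, 2 and 5). No treatment is given for either group, and the cells were grown in medium with serum before grafting. The labels name neither the hairpin sequence, the number of hairpins or clones, nor the host animals' strain and age, and whether replicates are separate animals is not said either. A p-value here therefore reflects how far these 6 libraries vary, a variation that may be technical. Sqle encodes squalene epoxidase, an enzyme of cholesterol synthesis.

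SREBP1 and SREBP2 are transcription factors made as membrane-bound precursors. When membrane sterol is low, the escort protein Scap carries the precursor from the endoplasmic reticulum to the Golgi, where the site-1 protease (Mbtps1) and then the site-2 protease (Mbtps2) cut the active factor free. When sterol is high, the retention proteins Insig1 and Insig2 hold Scap back. SREBP2 mainly drives genes of cholesterol synthesis and uptake, and SREBP1 mainly those of fatty acid synthesis. Srebf2, Insig1 and Stard4 are among the known SREBP targets, a list that is not complete, so that the system regulates itself. Cleavage and retention act on proteins, which RNA sequencing does not measure.

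Promoters are shown for Srebf2 and Insig1 as self-regulated targets. That of Srebf1 is shown because the groups lay apart in the ratio of Srebf1 to Srebf2 below. This choice does not place Srebf1 outside such self-regulation. Sequences are from RefSeq on build GRCm38.p6, cover 250 bases before the annotated start and 50 after it, and are printed in the direction of the gene; the reads were aligned to another build, GRCm39, per the submitters' processing notes. Capitals mark a sterol regulatory element (SRE, searched as TCACNCCA), an E-box (CACGTG) or an NF-Y box (CCAAT), each sought on both strands, with no overlap between them in these windows.
Srebf2, chr15:82147019-82147318, plus strand: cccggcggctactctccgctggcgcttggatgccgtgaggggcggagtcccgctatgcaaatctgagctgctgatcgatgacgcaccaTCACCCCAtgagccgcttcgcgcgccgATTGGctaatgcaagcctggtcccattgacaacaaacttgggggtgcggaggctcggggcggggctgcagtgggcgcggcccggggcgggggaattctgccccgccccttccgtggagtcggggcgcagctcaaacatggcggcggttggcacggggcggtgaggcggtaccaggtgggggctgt
Insig1, chr5:28071162-28071461, plus strand: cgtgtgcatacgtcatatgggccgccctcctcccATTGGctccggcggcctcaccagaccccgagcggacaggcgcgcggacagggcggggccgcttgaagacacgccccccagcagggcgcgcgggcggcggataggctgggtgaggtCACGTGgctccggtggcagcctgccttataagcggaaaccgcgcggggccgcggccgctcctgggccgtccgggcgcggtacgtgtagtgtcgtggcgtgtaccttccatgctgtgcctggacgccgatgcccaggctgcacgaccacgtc
Srebf1, the last of 3 annotated starts, chr11:60210422-60210721, minus strand: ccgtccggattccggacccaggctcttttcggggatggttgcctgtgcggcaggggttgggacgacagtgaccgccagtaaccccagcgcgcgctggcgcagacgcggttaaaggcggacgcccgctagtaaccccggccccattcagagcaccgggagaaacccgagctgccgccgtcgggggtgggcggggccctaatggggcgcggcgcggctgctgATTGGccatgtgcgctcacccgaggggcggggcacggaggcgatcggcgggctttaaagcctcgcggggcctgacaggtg
The Srebf2 window held 1 SRE, 162 bases before the start, and 1 NF-Y box 135 bases before it. The Insig1 window held an E-box 101 bases before the start and an NF-Y box 216 bases before it. The Srebf1 window held an NF-Y box 30 bases before the start. Of 32851 promoter windows, 4.36% held the SRE letters, 7.15% the E-box and 37.4% the NF-Y box, so that the SRE letters are uncommon in windows of this length and the NF-Y box is common. Promoters were matched for 7 of the 8 genes; of these windows that of Srebf2 was the only one with the SRE letters, and none of the 3 Insig2 windows held the SRE or the E-box. A match describes letters and is no evidence of binding. A window without a match, such as that of Srebf1 for the SRE, may still hold an element with other letters.

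Library totals ranged from 16408622 to 19142185 expected counts. The labelled cell type was checked with 8 melanocyte markers, which were above 0 in every library and summed to 7700 to 10400 TPM (a level scaled to transcript length and library) in shControl and 9110 to 12100 TPM in shSQLE. The libraries also held RNA of host cells. Macrophage markers (all 8 above 0 in every library) summed to 93.8 to 347 TPM in shControl and 48.8 to 264 TPM in shSQLE, endothelial markers (6 of 6) to 11.4 to 49.1 and 10.3 to 25.6 TPM, and fibroblast markers (6 of 6) to 24.4 to 110 and 9.70 to 74.9 TPM. Adipocyte markers summed to 21.6 to 474 TPM in shControl and 19.5 to 42.9 TPM in shSQLE, with Adipoq, Plin1, Lep, Cidec and Retn at 0 in at least 1 library. Skeletal muscle markers summed to 20.1 to 170 TPM in shControl and 34.2 to 1460 TPM in shSQLE, the highest sum being that of shSQLE replicate 5, with Tnnt3 at 0 in at least 1 library. In such bulk samples fewer cells of a type and less RNA per cell cannot be told apart. The targeted gene Sqle was at 146, 151 and 148 CPM (counts scaled to library size and the TMM factor of a library) in the controls, replicates 1, 4 and 5. It was at 70.4, 66.8 and 77.1 CPM in shSQLE replicates 1, 2 and 5, so that all knockdown libraries lay below all controls.

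None of the 8 genes passed edgeR's quasi-likelihood test at a Benjamini-Hochberg adjusted p of 0.05. Over all genes 0% passed; 413 genes, or 3.11%, had an unadjusted p under 0.05, against 0 of the 8. DESeq2 also called 0 of the 8 and 8 genes over all, which is 0.0655%, with 471 genes at an unadjusted p under 0.05. Fold changes of the 8 genes lay between -0.29 and 0.35 on the log2 scale, with 2 above 0, 6 below it and a median of -0.06. Without shControl replicate 1 they were 4 and 4, as they were without shSQLE replicate 5. Over all tested genes 47.4% were higher and the median was -0.016. Every one of the 8 had an adjusted p of 0.9996 by edgeR, which is also the value for Sqle. The libraries of the groups overlapped for 7 of the 8 genes and lay apart for 1, Mbtps1, where 6.44% of all tested genes had groups that lay apart and 3.1% had them apart with shSQLE higher. Spread between libraries of a group was low for most of the 8: the median standard deviation on the log2 scale was 0.20, against 0.33 over all tested genes. Stard4 (0.36) and Mbtps2 (0.43) lay above that value, at percentiles 61.3 and 33.7 of expression level over all tested genes. The other members were at percentile 78.3 or higher, and spread was not compared with genes of like level.

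**Figure D1:**
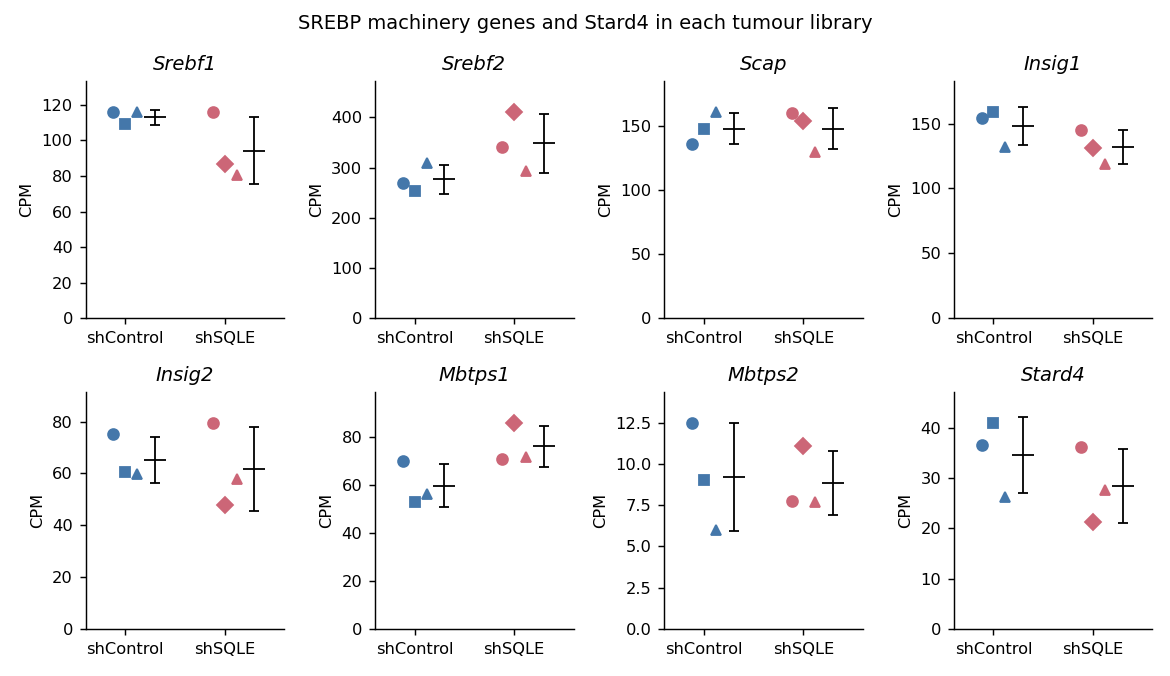
Level of each gene in CPM (vertical axis, from 0) in 3 shControl (blue) and 3 shSQLE (red) libraries; circles are replicate 1, squares shControl replicate 4, diamonds shSQLE replicate 2 and triangles replicate 5, and black marks are the mean and SD. The groups overlap in every panel except that of Mbtps1, where the highest control (69.9 CPM) lies just below the lowest knockdown library (70.9 CPM).

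The fold change estimates of the transcription factor genes differed in direction, and both intervals included 0. Srebf2, which encodes SREBP2, was at 269, 254 and 309 CPM in the controls (replicates 1, 4 and 5) and at 342, 411 and 294 CPM in the knockdown libraries (replicates 1, 2 and 5). The highest 2 libraries were shSQLE replicates 2 and 1, whereas shSQLE replicate 5 lay below shControl replicate 5. Group means were 277 ± 28.7 and 349 ± 58.8 CPM (SD, n = 3 each). The log2 fold change was 0.33 (SE 0.21, edgeR adjusted p = 0.9996), and its 95% confidence interval allows a change from -9.86% to 75.4%. The summed melanocyte markers moved with Srebf2 over the 6 libraries (r = 0.76, rho = 0.60), and their part was not tested. Srebf1, which encodes SREBP1, was at 116, 109 and 116 CPM in shControl and at 116, 86.6 and 80.3 CPM in shSQLE, in the same replicate order. Replicates 2 and 5 of shSQLE lay below every control, and shSQLE replicate 1 lay level with the upper controls. The log2 fold change was -0.27 (SE 0.20, edgeR adjusted p = 0.9996), with an interval from -39.1% to 13.2%. Skeletal muscle markers, highest in shSQLE replicate 5, tended to be high where Srebf1 was low over the 6 libraries, with Pearson's r of -0.83 and Spearman's rho of -0.77; their part in the difference was not tested. Srebf1 makes more than one SREBP1 isoform from separate starts, and the table, with 1 value per gene, does not separate them.

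Taken as a ratio within each library, Srebf1 was lower against Srebf2 in every shSQLE library than in every control. The ratio of their TPM was 0.514, 0.510 and 0.446 in the controls and 0.404, 0.251 and 0.326 in the knockdown libraries, in the same replicate order. The mean log2 ratio was -1.03 ± 0.11 in shControl and -1.64 ± 0.34 in shSQLE (SD, n = 3 each), a difference of -0.61. The two-sided exact permutation p was 0.1, which is the smallest that 3 libraries against 3 can give, and 0.3 after Benjamini-Hochberg adjustment over the 3 ratios computed. Leaving out 1 library in turn gave differences from -0.77 to -0.43, the smallest without shSQLE replicate 2. The ratio was chosen with the direction of Srebf2 in these libraries known, so the separation is a description.

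**Figure D2:**
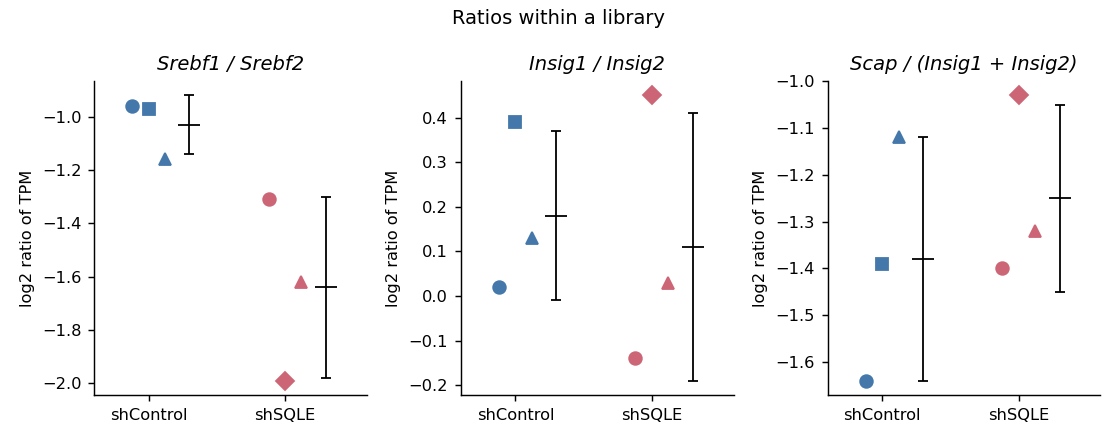
Log2 ratio of TPM within each library (vertical axis; scales differ between panels and do not start at 0) for Srebf1 to Srebf2, Insig1 to Insig2 and Scap to the sum of both Insig genes; colours and symbols give group and replicate as in the plot of levels, and black marks are the mean and SD. The groups lie apart for Srebf1 to Srebf2, with controls from -1.16 to -0.96 and knockdown libraries from -1.99 to -1.31, and overlap in the other panels.

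The escort gene showed almost no difference between group means. Scap was at 136, 148 and 161 CPM in shControl and at 160, 154 and 130 CPM in shSQLE. Both the lowest and the second highest value came from the knockdown group. Group means were 148 ± 12.3 and 148 ± 15.9 CPM (SD, n = 3 each), and the log2 fold change was -0.00039 (SE 0.18) with an interval from -25.2% to 33.6%. The sign of so small a value turned with the scaling, at 0.0026 with DESeq2 size factors. Scap expected counts were not whole in 1 library.

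The retention genes were somewhat lower on average, and their groups overlapped. Insig1, the isoform that SREBP itself induces, was at 154, 159 and 132 CPM in shControl and at 145, 131 and 119 CPM in shSQLE. Its 2 highest libraries were controls and its 2 lowest were knockdown libraries, with shControl replicate 5 and shSQLE replicate 1 in reverse order between them. The log2 fold change was -0.17 (SE 0.18, edgeR adjusted p = 0.9996), with an interval from -33.5% to 18.8%. Insig2, which is not known as an SREBP target, was at 75.3, 60.4 and 59.8 CPM in shControl and at 79.6, 47.7 and 58.0 CPM in shSQLE. Replicate 1 was the highest library of either group, and the lowest was shSQLE replicate 2. The log2 fold change was -0.078 (SE 0.23), and it turned to 0.081 without shSQLE replicate 2 and to 0.04 without shControl replicate 1. The ratio of Insig1 to Insig2 TPM was 1.02, 1.31 and 1.10 in shControl and 0.909, 1.36 and 1.02 in shSQLE, a mean log2 difference of -0.07 (exact permutation p = 0.8). That difference was 0.056 without shSQLE replicate 1 and 0.035 without shControl replicate 4. The ratio of Scap to both Insig genes together was 0.322, 0.382 and 0.460 in shControl and 0.379, 0.491 and 0.400 in shSQLE, a mean log2 difference of 0.13 (exact permutation p = 0.5). It was 0.0049 without shControl replicate 1 and 0.02 without shSQLE replicate 2.

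The fold change estimates of the protease genes differed, with overlapping intervals and no test of that difference. Mbtps1, whose product makes the first cut, was at 69.9, 52.9 and 56.5 CPM in shControl and at 70.9, 86.1 and 71.7 CPM in shSQLE. All knockdown libraries lay above all controls, although shControl replicate 1 and shSQLE replicate 1 were only about 1 CPM apart. Group means were 59.8 ± 8.99 and 76.2 ± 8.59 CPM (SD, n = 3 each). The log2 fold change was 0.35 (SE 0.19, unadjusted p = 0.1, edgeR adjusted p = 0.9996), with an interval from -5.59% to 72.3%. Melanocyte markers moved with Mbtps1 as well (r = 0.78, rho = 0.49), and their part was not tested. With 1 of 8 genes apart (Mbtps1) against 6.44% of all genes, the separation is read as a single gene and not as a property of the group. Mbtps2, whose product makes the second cut inside the membrane, was the least abundant, at 12.5, 9.03 and 6.01 CPM in shControl and 7.77, 11.1 and 7.72 CPM in shSQLE. The controls spanned the whole range of the knockdown libraries. Its log2 fold change was -0.05 (SE 0.32), with the widest interval of the 8 genes, from -41.6% to 59.7%. It rested on 109.9 to 229.7 expected counts per library, which were not whole in 5 libraries, so that some reads may be shared with other genes. Its direction turned without shControl replicate 1 (0.24), without shSQLE replicate 1 (0.039) and without shSQLE replicate 5 (0.054).

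Stard4, which encodes a soluble protein that moves cholesterol between membranes and is an SREBP2 target, was at 36.6, 41.0 and 26.2 CPM in shControl and at 36.1, 21.3 and 27.6 CPM in shSQLE. The highest 2 libraries were controls and the lowest was shSQLE replicate 2, with the others mixed. Group means were 34.6 ± 7.57 and 28.4 ± 7.42 CPM (SD, n = 3 each). On the log2 scale the fold change was -0.29 (SE 0.26, edgeR adjusted p = 0.9996), with an interval from -45.3% to 22.9%. Leaving out shSQLE replicate 2 gave -0.12 and leaving out shSQLE replicate 1 gave -0.50. The sign turned, to 0.028, when the replicate number was a block. Stard4 ran against the melanocyte markers over the 6 libraries (r = -0.72, rho = -0.60) and against the macrophage markers (r = -0.66, rho = -0.66). The part of either was not tested. Each gene was set against every marker list, and the correlations named for the genes were picked as the largest in size.

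**Figure D3:**
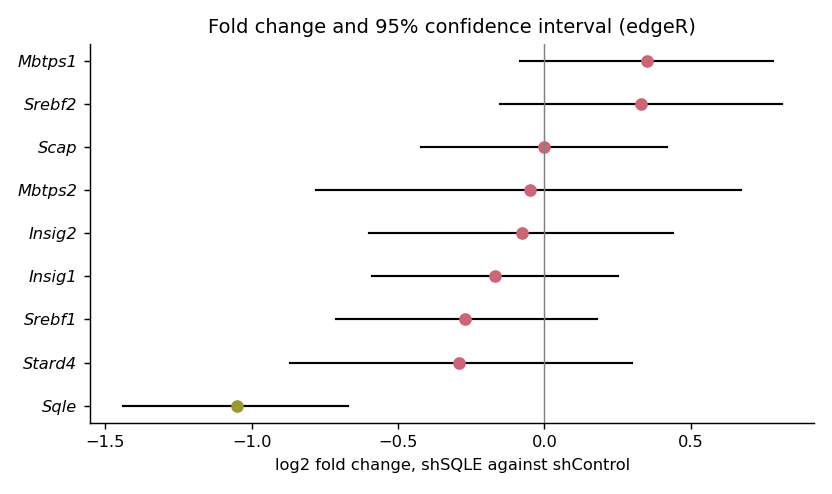
Log2 fold change of shSQLE against shControl (horizontal axis) for the 8 genes (red) and for the targeted gene Sqle (olive); points are edgeR estimates and lines 95% confidence intervals. The interval of Sqle runs from -1.44 to -0.67, and those of all 8 genes include 0.

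Per transcript length, Srebf2 was the most abundant of the 8 and Mbtps2 the least. Mean TPM over the 6 libraries was 86.6 for Srebf2, 62.7 for Insig1, 56.9 for Insig2, 47.9 for Scap and 34.0 for Srebf1. The proteases and the transport gene followed with a range of 13.9 to 28.9 TPM for Mbtps1 and means of 8.15 for Stard4 and 3.95 TPM for Mbtps2. Mbtps1 exceeded Stard4 2.45-fold and Stard4 exceeded Mbtps2 2.06-fold in level, and in both cases the ranges over libraries did not overlap. Srebf2 and Insig1, Insig1 and Insig2, and Insig2 and Scap are neighbours whose ranges overlapped, each pair keeping its order in 5 of 6 libraries. Scap and Srebf1, and Srebf1 and Mbtps1, kept their order in 6 of 6 libraries while their ranges overlapped. These levels rest on 1 effective length per gene for all libraries, so a shift between isoforms would not be seen.

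**Figure D4:**
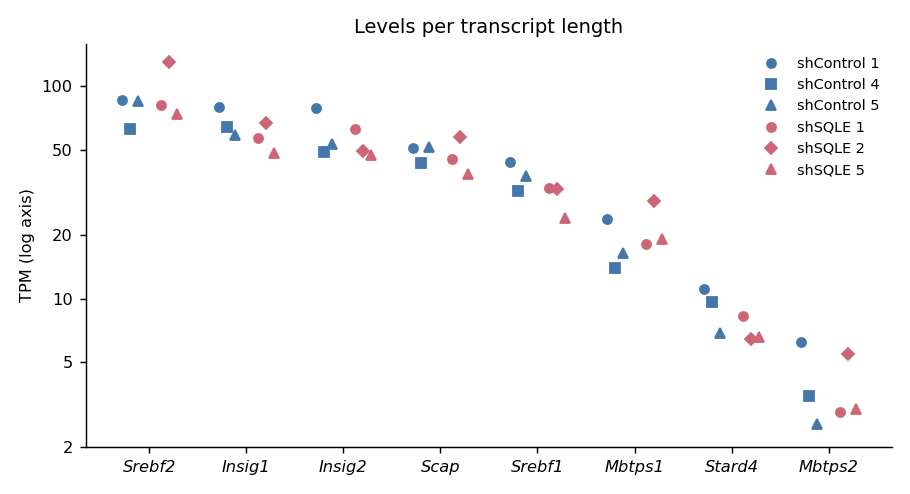
Level per transcript length in TPM (vertical log axis) of the 8 genes in order of their mean, with shControl libraries in blue on the left and shSQLE libraries in red on the right of each gene. Levels run from 62.9 to 130 TPM for Srebf2 down to 2.57 to 6.24 TPM for Mbtps2.

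Over the 6 libraries the genes did not move as a unit. Insig1 and Stard4 had the most similar profiles of the 28 pairs of the 8 genes (r = 0.81, rho = 0.83, n = 6), followed by Insig2 and Stard4 (r = 0.75, rho = 0.71) then by Srebf2 and Mbtps1 (r = 0.74, rho = 0.71) and by Srebf1 and Insig1 (r = 0.74, rho = 0.66). The most opposed were Srebf2 and Stard4 (r = -0.76, rho = -0.83). These values describe points that share libraries, scaling and group. The opposed profiles rested largely on the same 2 libraries: shSQLE replicate 2 was highest for Srebf2 and Mbtps1 and lowest for Insig2 and Stard4, and shControl replicate 4 was lowest for Srebf2 and Mbtps1 and highest for Insig1 and Stard4. Over all tested genes these 2 libraries were also the most unlike of the 15 pairs, with a chi-square of 132 per degree of freedom; the part of this in the profiles was not tested. The 2 genes most like each member by Pearson's r were Ier3 (0.995) and Slc16a4 (0.994) for Srebf1, Nup188 (0.993) and Rnf26 (0.989) for Srebf2, and Ctns (0.990) and Cfap126 (0.987) for Scap. They were Fbxl4 (0.998) and Coa5 (0.989) for Insig1, and Gm48604 (0.991) and Slc39a11 (0.990) for Insig2. For the proteases they were Gm6430 (0.988) and Kank1 (0.981) with Mbtps1 and 6330403L08Rik (0.985) and Arhgap42 (0.984) with Mbtps2, and for Stard4 Paip2b (0.9995) and Tspan15 (0.990). With only 6 libraries such values are common: between 70 and 263 tested genes had an r over 0.9 with a given member.

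Genes that act with the 8 had small list medians, with single log2 fold changes from -0.60 to 0.27 for retention, transport and turnover. Of 20 genes of SREBP retention, transport and turnover, 7 had a fold change above 0 and 13 below, with a log2 median of -0.07 against -0.016 over all genes, and 0 of them had even an unadjusted p under 0.05. Leaving out shControl replicate 1 turned the median to 0.032, and leaving out shSQLE replicate 5 turned it to 0.022. The smallest p values were those of Rnf139, a ubiquitin ligase of the endoplasmic reticulum (-0.28, SE 0.21), Sar1b, a GTPase that forms transport vesicles (-0.20, SE 0.20), and Erlin2, a lipid raft protein that binds the SREBP complex (0.27, SE 0.27). Expected counts of Rnf139 were not whole in any library. Of 6 tested genes among 8 other substrates of the proteases, 3 were higher and 3 lower (median -0.01) and 0 passed. The leading ones were the membrane-bound factors Creb3l1 (-0.39, SE 0.33) and Creb3l2 (0.28, SE 0.28), and Gnptab, a phosphotransferase precursor cut by the site-1 protease (0.28, SE 0.30).

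Of 14 genes of sterol uptake and non-vesicular sterol transport, 3 were higher and 11 lower (median -0.13, and -0.041 without shControl replicate 1 or -0.038 without shSQLE replicate 5), 0 passed over all genes, and 1 had an unadjusted p under 0.05. That gene was Vldlr, a lipoprotein receptor, with 53, 13 and 20 counts in shControl and 9, 2 and 4 counts in shSQLE. All knockdown libraries lay below all controls at this low depth, and the log2 fold change was -2.51 (SE 0.72, unadjusted p = 0.0073, edgeR adjusted p = 0.9996). Endothelial markers, whose cells also express Vldlr, summed to 49.1, 11.4 and 26.3 TPM in shControl and 10.3, 25.6 and 14.2 TPM in shSQLE. Both were highest in shControl replicate 1, but shSQLE replicate 2, lowest for Vldlr, lay near shControl replicate 5 in these markers. The part of endothelial cells was not tested. Gramd1b, which moves sterol from the plasma membrane, had a log2 fold change of 0.36 (SE 0.25).

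The tallies of both sets of SREBP target enzymes shifted with the library left out. Of 19 enzymes of cholesterol synthesis other than Sqle, 16 were higher and 3 lower (median 0.13), and 0 passed the test. Without shControl replicate 1, the lowest library for 12 of the 19, the tally was 11 and 8 and the median 0.011. Without shSQLE replicate 1 it was 12 and 7 with a median of 0.069. Leaving out shSQLE replicate 5 gave 18 and 1 with a median of 0.22. The median of the cholesterol enzymes stayed above 0 whichever library was left out. Dhcr7, which makes the last step to cholesterol, had a log2 fold change of 0.33 (SE 0.26), Lss 0.31 (SE 0.23) and Msmo1 0.29 (SE 0.19). Of 15 fatty acid synthesis targets of SREBP1, 5 were higher and 10 lower (median -0.13), and 0 passed. Without shSQLE replicate 5 the tally was 8 and 7 and the median 0.029. Without shControl replicate 5 it was 7 and 8 with a median of -0.067. Leaving out shSQLE replicate 1 gave 2 and 13 (median -0.23), and leaving out shSQLE replicate 2 also gave 2 and 13 (median -0.21). Adipocyte markers summed to 174, 21.6 and 474 TPM in shControl and 19.5, 35.0 and 42.9 TPM in shSQLE; their part in this list was not tested. Malic enzyme Me1 was at 121, 96.4 and 90.1 CPM in shControl and 84.5, 67.7 and 63.7 CPM in shSQLE, with all knockdown libraries below all controls. Its log2 fold change was -0.51 (SE 0.20, edgeR unadjusted p = 0.0328, adjusted p = 0.9996). Acacb, a carboxylase, was at -0.81 (SE 0.35), and Mid1ip1, which promotes carboxylase assembly, at 0.43 (SE 0.20) with all knockdown libraries above all controls. Of the 15 genes, 2 had groups apart with shSQLE lower and 1 with shSQLE higher, where 6.44% of all tested genes had groups apart. Library by library, the mean of the cholesterol enzymes was 6.16, 6.68 and 6.61 log2 CPM in shControl and 6.83, 6.55 and 6.49 in shSQLE, with r of 0.29 and rho of 0.20 for Srebf2 and 0.69 and 0.66 for Scap (n = 6). The fatty acid synthesis mean was 6.09, 6.14 and 6.34 log2 CPM in shControl and 6.17, 6.02 and 5.75 in shSQLE, with r of 0.85 and rho of 0.60 for Srebf1 and 0.79 and 0.83 for Scap (n = 6). Srebf1, Scap and the fatty acid mean were all lowest in shSQLE replicate 5. The correlations named here were picked from those of each gene with every list, and others were of like size. Srebf1 also moved with the mean of the uptake list (r = 0.73, rho = 0.94). Mbtps2 moved with that of the retention, transport and turnover list (r = 0.80, rho = 0.83).

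**Figure D5:**
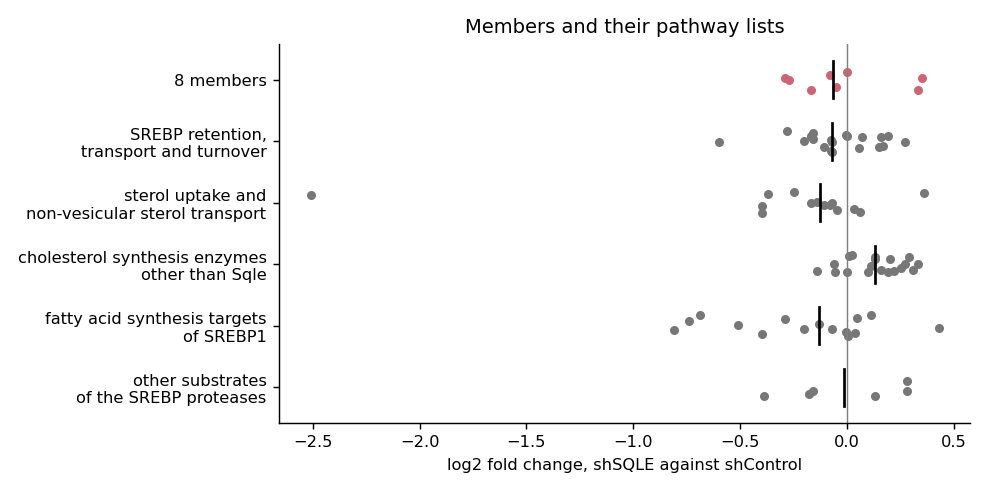
Log2 fold change of shSQLE against shControl (horizontal axis) for the 8 genes (red) and the tested genes of 5 pathway lists (grey), 1 point per gene, with a black line at each median. Medians run from -0.13 for the uptake and fatty acid lists to 0.13 for cholesterol synthesis, and Vldlr lies alone at -2.51.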

How the data were processed

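RNA was sequenced as paired reads from 6 libraries of subcutaneous B16F10 tumours, grouped by their titles. The authors deposited 1 table of expected counts per gene and library together with gene lengths (full and effective, in bases). FastQC, STAR, RSEM and DESeq2 with build GRCm39 are named, without versions, in the submitters' processing notes; strand and annotation release are not stated there. Libraries held 16408622 to 19142185 counts, and no pair agreed within sampling noise (chi-square per degree of freedom at least 35.9).

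Expected counts were rounded and filtered with filterByExpr (minimum count 10, minimum total 15), leaving 13268 genes. All 6 libraries entered 1 quasi-likelihood fit in edgeR 4.0.16 (R 4.3.3, TMM factors 0.928 to 1.12, robust=TRUE, no covariate besides group), and p-values were adjusted by Benjamini-Hochberg over all tested genes and a threshold of 0.05. The SE is the log2 fold change divided by the square root of F. TPM was computed from expected counts and effective length, and log2 CPM used a prior count of 2. Ratios were tested with a two-sided exact permutation test. Alternatives were DESeq2 1.42.0, limma voom (limma 3.58.1), other scalings and filters, counts not rounded, an adjusted p of 0.1, a block for the replicate number, and leaving out each library. Scripts were tested on simulated data. Named genes are the 8 members, Sqle, the 3 members of each pathway list with the smallest p, and the 2 genes most correlated with each member. Of the uptake list, 1 gene that this rule names is not reported here. Markers at 0 are named beside their sums. The members and lists were chosen with earlier results of these data known. Figures used matplotlib 3.10.9 in Python 3.11.15.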

Additional observations from a re-analysis of the deposited data

How the results depend on the processing

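The count of 0 called among the 8 genes was the same under every alternative run, including the replicate number as a block (0 of 8) and each library left out. Over all genes the count of 0 rose to 8 with DESeq2 and to 41 with the replicate block, and leaving out 1 library gave 0 to 31, the highest without shSQLE replicate 1; the causes were not tested. Only replicate numbers 1 and 5 occur in both groups, the deviations of same-numbered libraries correlated at -0.13 and 0.07, and the labels do not say that a number marks a shared animal or day.

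Srebf1, Srebf2, Insig1 and Mbtps1 kept their direction under all 15 alternatives, with log2 fold changes from -0.44 to -0.16, 0.13 to 0.45, -0.25 to -0.096 and 0.18 to 0.48. Scap turned to 0.0026 with DESeq2 size factors, 0.017 with no filter and 0.0027 with DESeq2, and ranged from -0.058 to 0.09 with 1 library left out. With the replicate block Insig2 was 0.018 and Stard4 0.028; with 1 library left out Insig2 ranged from -0.30 to 0.081 and Mbtps2 from -0.28 to 0.24. Sqle kept its value of -1.05 with DESeq2 and passed the threshold there (adjusted p = 8.15e-05). List medians with 1 library left out, an alternative chosen after seeing the data, ranged from -0.065 to 0.032 for retention, transport and turnover, -0.23 to 0.029 for fatty acid synthesis, -0.067 to 0.14 for other protease substrates, -0.19 to -0.038 for uptake and 0.011 to 0.28 for cholesterol synthesis. The difference in the ratio of Insig1 to Insig2 ranged from -0.24 to 0.056 with 1 library left out, and that of Srebf1 to Srebf2 was -0.40 over the same-numbered pairs. With 3 libraries a group, the lowest end of the 95% intervals of the 8 genes was -45.3% (Stard4) and the highest 75.4% (Srebf2). Each gene has its own interval, such as -33.5% to 18.8% for Insig1, and the data do not settle changes inside it.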

Other observations

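An intron of Srebf2 holds the gene of the microRNA miR-33, whose row in the table, Mir33 (chromosome 15, 82198122 to 82198190 within Srebf2 at 82147269 to 82205379, GRCm38.p6), was listed at 0 counts in all 6 libraries. This count of 0 gives no upper limit for miR-33, because Mir33 is only 69 bases long. That is shorter than the gap between the full and effective lengths of Srebf1 (3519.4 and 3296.89 bases). With such a gap, a gene of 69 bases has no effective length left, so its level was not tested. The libraries were made from total RNA by a protocol that does not name small RNAs.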
